A study of Homo sapiens with 4 samples.

Results

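TLX3, ZAR1, PCDH8 and IRS2 are genes at which K562 leukaemia cells gained much accessible DNA with doxorubicin. Their members are the regions of 3 deposited lists of gained regions that overlap the GRCh37 gene span extended by 10 kb on each side, and they number 9 of 100205 regions in any list. There are 6 at TLX3 and 1 each at ZAR1, PCDH8 and IRS2. The 4 genes were chosen by the measured gain over control with doxorubicin and by its contrast with the other drugs, so all values of these contrasts are descriptions with no test. The leading region of a gene is its region with the highest log2 fold in the doxorubicin list.

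Accessible DNA was measured by ATAC-seq, in which a transposase inserts sequencing adapters into DNA that is free of nucleosomes, in K562, an established human chronic myelogenous leukaemia line. Cells were left untreated (control) or received for 4 h either doxorubicin (called Doxo) or its N,N-dimethyl form (called diMe-Doxo) at 10 µM, or aclarubicin (called Acla) at 20 µM. There is 1 GEO sample per group, and each list holds 2 treated and 2 control libraries whose origin from separate cultures the labels do not state. The control reads were identical in all 3 lists at the regions they share, so every fold below rests on the same 2 control libraries. Summed over the listed regions, a treated library held 3534855 to 7266289 reads and a control library 120492 to 253175, depending on the list, and the full depth is unknown. The lists hold gained regions only, so K562 identity was not checked against marker genes and a region that is not listed has no value here.

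Anthracyclines intercalate into DNA. Doxorubicin also traps topoisomerase II on broken DNA, and the drugs are known to evict histones, which for aclarubicin and the dimethylated compound occurs with few breaks. The series asks how these activities can be separated. TLX3 is a homeobox transcription factor of developing neurons that is switched on aberrantly in some T-cell leukaemias. ZAR1 is an oocyte protein needed for the transition from egg to embryo, PCDH8 is a protocadherin, a cell-surface adhesion protein of the cadherin superfamily, and IRS2 is a docking protein that links insulin and IGF receptors to PI3-kinase. Among protein-coding genes in RefSeq, TLX3 lies between RANBP17 and NPM1, ZAR1 between SLC10A4 and FRYL, PCDH8 between CNMD and OLFM4, and IRS2 next to MYO16.

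The sequences upstream of 3 of the 4 genes are shown, since the RefSeq promoters used here held none for ZAR1. The leading regions of TLX3 and PCDH8 span the gene start while that of IRS2 does not. By the GRCh37 spans those of TLX3 and PCDH8 reach only 84 and 45 bp upstream. Most of the bases shown thus lie outside the leading regions. Each run is the 250 bases before the RefSeq gene start (GRCh38.p14, a different build from that of the lists), 5′ to 3′ on the gene's strand, with CpG dinucleotides in capitals. TLX3 lies on the plus strand (chr5:171308998-171309247), PCDH8 on the minus strand (chr13:52848641-52848890) and IRS2 on the minus strand (chr13:109786584-109786833).
TLX3: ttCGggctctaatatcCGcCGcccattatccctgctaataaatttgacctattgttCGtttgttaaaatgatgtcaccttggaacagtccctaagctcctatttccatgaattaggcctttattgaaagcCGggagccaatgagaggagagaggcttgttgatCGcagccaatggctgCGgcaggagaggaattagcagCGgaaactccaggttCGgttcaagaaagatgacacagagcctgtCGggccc
PCDH8: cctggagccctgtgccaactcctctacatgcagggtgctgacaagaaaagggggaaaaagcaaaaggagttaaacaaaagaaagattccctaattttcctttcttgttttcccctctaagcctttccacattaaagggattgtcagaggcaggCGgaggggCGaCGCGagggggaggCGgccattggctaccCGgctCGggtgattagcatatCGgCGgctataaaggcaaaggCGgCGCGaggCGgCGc
IRS2: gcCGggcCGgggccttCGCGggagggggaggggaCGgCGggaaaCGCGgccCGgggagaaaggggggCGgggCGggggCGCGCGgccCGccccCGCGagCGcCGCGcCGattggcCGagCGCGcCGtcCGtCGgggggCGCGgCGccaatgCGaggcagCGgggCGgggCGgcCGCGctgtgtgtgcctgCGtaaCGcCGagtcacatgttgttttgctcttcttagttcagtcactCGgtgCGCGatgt

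These upstream sequences differed widely in CpG content. TLX3 had 10 CpG and PCDH8 14, near the median of 11 over 35116 RefSeq promoters of the same length. IRS2 had 42, a count that 1.38% of promoters reached. GC content was 48.8% for TLX3, 54.8% for PCDH8 and 76.4% for IRS2, beside a median of 58.0%.

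**Figure D1:**
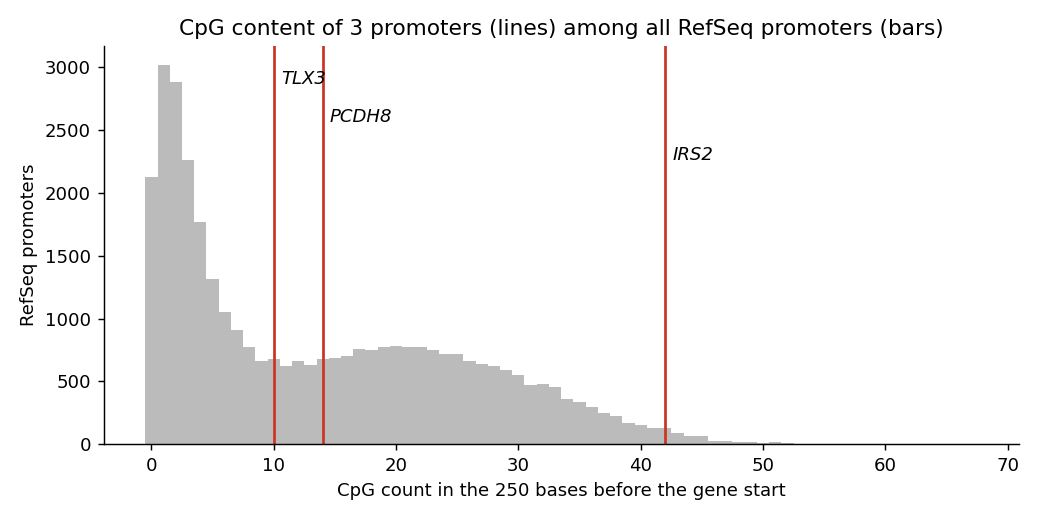
Number of CpG dinucleotides in the 250 bases before the gene start (x axis) against the number of RefSeq promoters (y axis, bars), with lines at TLX3 (10), PCDH8 (14) and IRS2 (42). The first 2 lie close to the median of 11 and IRS2 lies in the upper tail.

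Of the motifs searched on both strands, GGGCGG (present in 42.6% of all promoters) occurred 1 time upstream of TLX3, 0 times for PCDH8 and 5 times for IRS2. CGCG (in 46.4% of promoters) occurred 0, 2 and 10 times. CCAAT, searched after the sequences had been seen, occurred 2 times for TLX3, 1 time for PCDH8 and 2 times for IRS2, and 32.0% of all promoters hold it. The matches of GGGCGG and CGCG can overlap each other. A match is a string of letters and not a shown binding site.

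The leading regions were wide and lay on or inside the genes, judged by the GRCh37 spans and the RefSeq strands. On chromosome 5 the TLX3 region at 170736204-170738871 was 2667 bp wide, began 84 bp before the gene start and ended 267 bp before the gene's other end. The ZAR1 region, chromosome 4 at 48491667-48494203, was 2536 bp wide, began 642 bp below the lower end of the gene span and held 1894 bp of it. The PCDH8 region, chromosome 13 at 53419715-53422820, was 3105 bp wide and reached 45 bp beyond the gene start. The IRS2 region, chromosome 13 at 110434909-110438139, was 3230 bp wide and lay wholly inside the gene, ending 776 bp short of its start. The median region was 803 bp wide for Doxo, 894 bp for diMe-Doxo and 854 bp for Acla, and between 0.229% and 1.25% of Doxo regions were at least as wide as these 4. The starts are as deposited, which do not say whether they count from 0 or 1.

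All 4 leading regions were listed for all 3 drugs, as were 189 of the 206 Doxo regions whose Doxo fold reached that of IRS2. Of all 66720 Doxo regions, 28735 were listed for all 3 drugs. Over regions in any list, many of them not in the Doxo list, the share was 28.7%. No peak had been called at the 4 leading regions in either control library. Such a lack of control peaks was the rule, at 82.6% of regions with Doxo, 88.8% with diMe-Doxo and 91.3% with Acla. Peaks were called in both treated libraries with all drugs at TLX3 and ZAR1, as at 63.4% of regions with Doxo, 70.1% with diMe-Doxo and 73.5% with Acla. At PCDH8 a peak was called in only 1 Acla library, and at IRS2 in only 1 diMe-Doxo library. Listing with Acla was weakest at ZAR1 and IRS2, where the authors' false discovery rates (DiffBind) were 0.0397 and 0.0182. Those at PCDH8 and TLX3 were 0.00184 and 2.4e-07.

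TLX3 had the highest fold of the 4 genes with every drug when both control libraries were used, a ranking that turned without control library 2. Its leading region held 727 and 808 reads with Doxo, 549 and 511 with diMe-Doxo, 392 and 351 with Acla, and 2 and 2 in the controls. The libraries differed in depth, and after the authors' normalization the values in the Doxo list were 517 and 569 with Doxo against 2.88 and 2.77 in the controls. The drug libraries lay far above both controls. The lists hold only regions gained over these controls, so a lack of overlap says nothing particular about TLX3. In the authors' deposited table the log2 fold over control was 7.58 with Doxo, 5.76 with diMe-Doxo and 4.73 with Acla. By fold it ranked 13 of 66720 Doxo regions and 8 of 52784 for diMe-Doxo. The Acla value was reached by 1.38% of the regions listed for that drug. The linear fold with Doxo was 192, with a 95% counting interval of 74.6 to 703 from controls that held 4 reads in all.

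ZAR1 was extreme in the Doxo list and low in the Acla list. It had 706 and 828 reads with Doxo, 254 and 173 with diMe-Doxo, 99 and 116 with Acla, and 1 and 7 in the controls. As at TLX3, the libraries of each drug lay above both controls, which the choice of gained regions favours. The log2 fold in the authors' deposited table was 6.60 with Doxo, 3.54 with diMe-Doxo and 2.03 with Acla. The Acla value is low for its list, since 87.4% of Acla regions had at least that fold, while 0.169% of Doxo regions reached the Doxo value. The linear Doxo fold was 97.3 (95% counting interval 49.1 to 225).

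PCDH8 also lay far up the Doxo list. It had 793 and 926 reads with Doxo, 319 and 214 with diMe-Doxo, 180 and 176 with Acla, and 1 and 6 in the controls. The log2 fold in the authors' deposited table was 6.96 with Doxo, 4.05 with diMe-Doxo and 2.94 with Acla, values that 0.0719%, 3.58% and 34.0% of the regions of these lists reached. The gain was thus near the top of the Doxo list and in the upper middle of the Acla list. The linear Doxo fold was 125 (95% counting interval 60.3 to 310).

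IRS2 held the most reads of the 4 in the Doxo libraries. There were 906 and 1028 reads with Doxo, 412 and 285 with diMe-Doxo, 231 and 185 with Acla, and 1 and 11 in the controls. The log2 fold in the authors' deposited table was 6.36 with Doxo, 3.67 with diMe-Doxo and 2.40 with Acla, and 0.309%, 7.97% and 63.9% of listed regions reached these values. Its linear Doxo fold was 82.0 (95% counting interval 46.9 to 159). With both controls the fold was the lowest of the 4 although the reads were the most, and the second control library held 11 reads there, more than at the other genes. Without that library the Doxo log2 fold of IRS2 was 8.89, the highest of the 4.

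**Figure D2:**
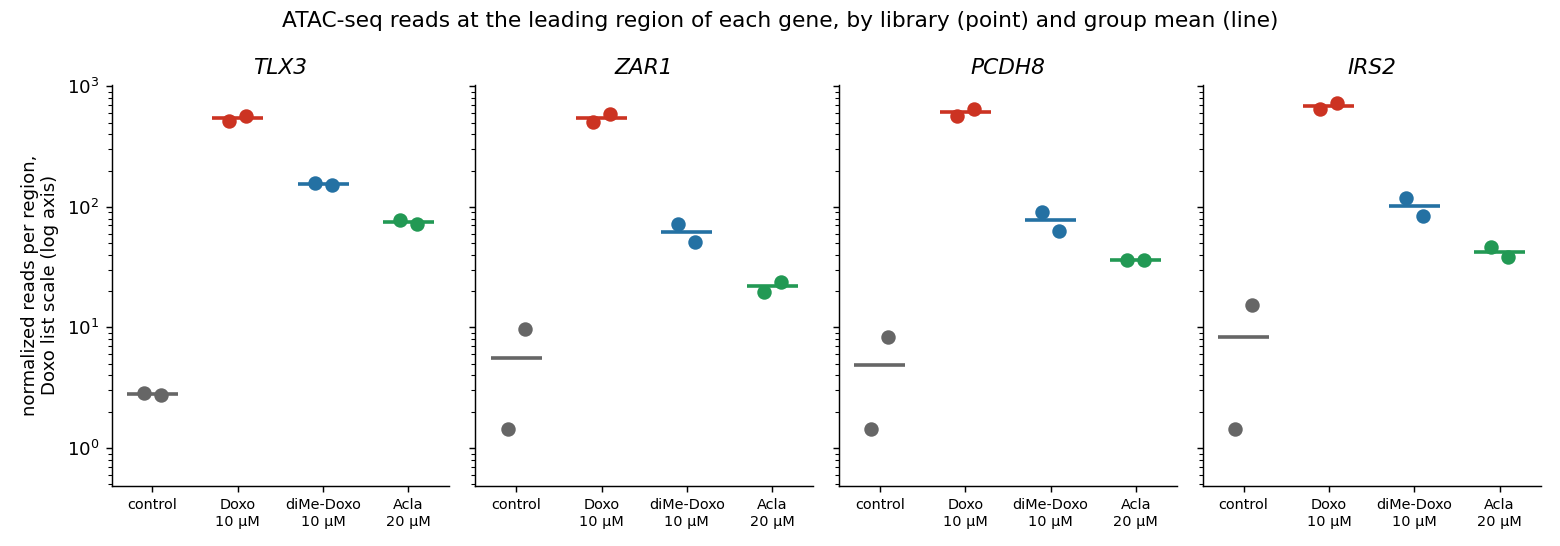
Normalized reads (y axis, log scale) at the leading region of each gene in each library (points) with the group mean (line), with all lists brought to the scale of the Doxo list by means of their common controls. Doxo points lie between 502 and 724, above diMe-Doxo, Acla and the 2 controls at all 4 genes.

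The control libraries disagreed at ZAR1, PCDH8 and IRS2, and the folds there depended on which was used. Control library 1 held 1 read at each, the lowest value in the lists, at which a region with no read may also stand. It also held 1 read at 58.4% of the 28735 regions in all 3 lists. Without control library 1 the Doxo log2 fold was 5.80 at ZAR1, 6.19 at PCDH8 and 5.49 at IRS2, and without control library 2 it was 8.56, 8.72 and 8.89. For diMe-Doxo the corresponding values were 2.77, 3.31 and 2.82 without library 1 and 5.32, 5.64 and 6.03 without library 2. For Acla they were 1.25, 2.20 and 1.55 without library 1 and 3.84, 4.56 and 4.79 without library 2. TLX3 had 2 reads in each control, and without control library 2 its log2 folds were 7.56 with Doxo, 5.64 with diMe-Doxo and 4.63 with Acla. The order of the 4 genes thus rested on control library 2. Without it TLX3 had the lowest Doxo fold, and IRS2 lay above TLX3 with every drug. Counting intervals cover counting error only.

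Per length, the 4 genes were nearly level with Doxo, and TLX3 stood above the others with the other drugs. On the scale of the Doxo list, the mean of normalized reads per kb with Doxo was 204 at TLX3, 214 at ZAR1, 196 at PCDH8 and 212 at IRS2. With diMe-Doxo it was 57.6 at TLX3 and 24.3, 24.8 and 31.2 at ZAR1, PCDH8 and IRS2. With Acla it was 28.2 at TLX3 and 8.61, 11.6 and 13.05 at the others. The SD of log2 signal between the 2 libraries of a drug at these regions ran from 0.0057 to 0.38. The 4 levels with Doxo differ by no more than their libraries do, while TLX3 lies above the other 3 genes in both libraries of diMe-Doxo and of Acla.

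Methylation of the sugar amine sets diMe-Doxo apart from Doxo, and the dose and time of the 2 drugs were equal. After both lists were rescaled by their common controls, the log2 difference of Doxo over diMe-Doxo from limma was 3.15 ± 0.20 (SE, 2 libraries per drug, 95% interval 2.75 to 3.56) at ZAR1. The difference was 3.0 ± 0.20 (2.60 to 3.40) at PCDH8 and 2.78 ± 0.19 (2.39 to 3.17) at IRS2. At TLX3 the difference was smaller, 1.82 ± 0.18 (1.46 to 2.18). On this scale 1 read was worth 0.711 and 0.704 in the Doxo libraries and 0.286 and 0.294 in those of diMe-Doxo. Part of each difference thus comes from the scaling and not from raw reads. Over the 33140 regions in both lists the median difference was 0.26 and 28.1% were called higher with Doxo at a limma adjusted p of at most 0.05. All 4 leading regions were among those called, but they were chosen for their gain with Doxo and nothing is read from that count. By size they ranked 307 (ZAR1), 498 (PCDH8), 893 (IRS2) and 3806 (TLX3), so their differences were large but not the largest. With TMM factors the median moved to -0.07 and the differences to 2.82, 2.67, 2.45 and 1.49 in the same order. Relative to the median they were 2.89, 2.74, 2.52 and 1.56 under both scalings. That equality is arithmetic, since a change of library factors shifts all regions alike.

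**Figure D3:**
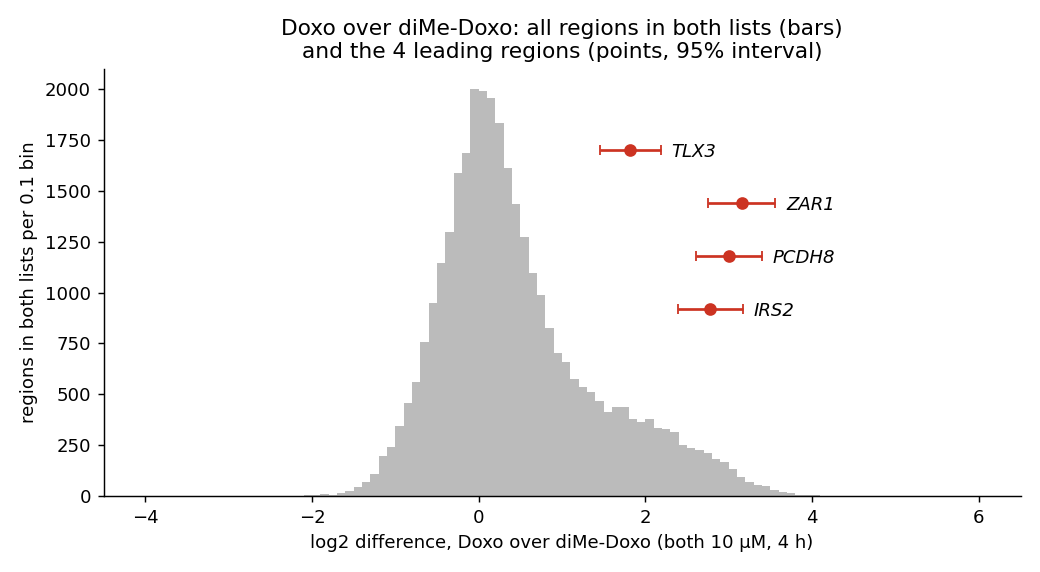
Log2 difference of Doxo over diMe-Doxo (x axis) for the 33140 regions in both lists (grey bars, number per bin on the y axis) and for the 4 leading regions (points with 95% intervals, placed at arbitrary heights). The bars have a shoulder on the right, in which TLX3 lies at 1.82 and the other 3 genes lie between 2.78 and 3.15.

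Acla was given at 20 µM, so its values stand beside those of the other drugs and the size of the gap was not compared. The Doxo fold of IRS2, the lowest of the 4 with both controls, was reached by 206 Doxo regions (0.309%). Of these, 197 were also in the diMe-Doxo list and 192 in the Acla list, and the 189 in all lists had median log2 folds of 6.65 with Doxo, 3.94 with diMe-Doxo and 3.62 with Acla.

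**Figure D4:**
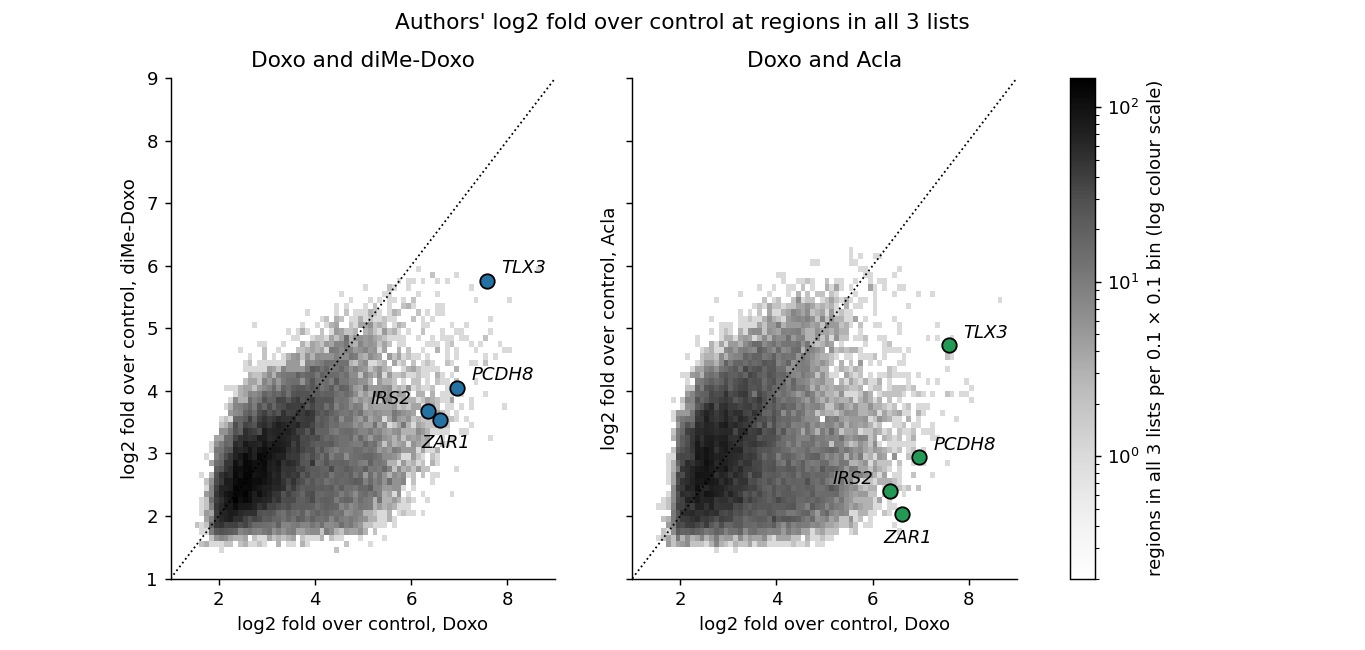
Authors' log2 fold over control with Doxo (x axis) against diMe-Doxo (left) and Acla (right) for the 28735 regions in all 3 lists (grey, darker for more regions per bin), with the 4 leading regions as points and equal folds as a dotted line. With both controls TLX3 is high with every drug, whereas ZAR1, PCDH8 and IRS2 lie far right and, with Acla, low (2.03 to 2.94).

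TLX3 had 5 further members, of which 2 were listed for all drugs and 3 were not listed for Doxo. The region at 170739307-170739903, 169 bp past the gene's end, had log2 folds in the authors' deposited table of 4.31 with Doxo, 3.37 with diMe-Doxo and 1.97 with Acla. It held 115 and 119 reads with Doxo, 143 and 144 with diMe-Doxo, 79 and 77 with Acla, and 1 and 5 in the controls. Peaks were called there in both libraries of Doxo and of diMe-Doxo, but in no Acla library. The region at 170741693-170742637 had 3.65, 3.0 and 1.96 in the authors' deposited table, and 1 control library had a called peak there (7 reads in library 1 and 2 in library 2). Both diMe-Doxo libraries had a called peak there, but no Doxo or Acla library did. The log2 difference of Doxo over diMe-Doxo was 0.99 ± 0.23 (95% interval 0.52 to 1.46) at the first and 0.60 ± 0.22 (0.14 to 1.05) at the second, smaller than the 1.82 at the leading region. Raw reads were higher with diMe-Doxo at both regions (at the second, 197 and 173 against 114 and 115 with Doxo). The sign of these differences thus rests on the scaling of the libraries. With TMM factors the differences were 0.66 (0.29 to 1.02) and 0.26 (-0.06 to 0.58). Whether the second difference was called at an adjusted p of at most 0.05 depended on the setting. It was with limma or edgeR after rescaling by the common controls, but not with DESeq2 or with TMM factors. Leaving out 1 library gave differences from 0.53 to 0.67. The locus was chosen for this contrast, so nothing is read from these calls.

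The regions at 170731102-170731910, upstream of TLX3, and 170744872-170745715, downstream, were listed for diMe-Doxo and Acla only. Their log2 folds in the authors' deposited table were 2.41 and 2.04 for the first and 3.15 and 2.22 for the second. The smallest member, 156 bp at 170748567-170748723, was listed for diMe-Doxo alone with a fold of 2.29 in the authors' deposited table, 26 and 22 reads and 1 read in each control. Of the 5 further TLX3 members this was the only one whose folds kept within 1.5 times when a control library was left out. The log2 folds of the other further members ranged over the drugs from 1.27 to 4.94 without control library 1 and from 1.21 to 5.84 without library 2. A drug whose list lacks a region may still have gained signal there below the listing limits.

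The last TLX3 member inside the 10 kb limit lay 9.43 kb from the gene span, with a diMe-Doxo log2 fold of 2.29 in the authors' deposited table, and the first region outside lay 14.8 kb away with 3.33. For IRS2 the first region outside was 12.4 kb away, with Doxo at 2.38, diMe-Doxo at 2.59 and Acla at 2.46 in the authors' deposited table.

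Other gained regions around the genes were more numerous than the median at TLX3 and fewer at the other 3. Within 200 kb of the span, apart from the leading region, TLX3 had 22 Doxo, 19 diMe-Doxo and 17 Acla regions. A listed region had a median of 16, 13 and 15 other regions within that distance of its own ends. The 5th to 95th percentiles were 2 to 53, 2 to 41 and 3 to 43. IRS2 had 6, 9 and 6, PCDH8 had 2, 2 and 5, and ZAR1 had 6 with Doxo and 0 with diMe-Doxo or Acla. Only the counts of 0 at ZAR1 lay outside these percentile ranges. Having no other listed region within 200 kb, as at ZAR1, occurred for 1.22% of regions with diMe-Doxo and 0.946% with Acla. The leading regions were chosen for their Doxo gain, so their standing above neighbours with Doxo is not a result. Between 10 and 200 kb the highest log2 fold in the authors' deposited table was 4.90, with Doxo. It belonged to a region on chromosome 13 at 110385597-110386981, 19.2 kb beyond the far end of IRS2. That region had 3.64 with diMe-Doxo and 2.87 with Acla in the authors' deposited table, so with Acla it was above the 2.40 of the leading IRS2 region.

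**Figure D5:**
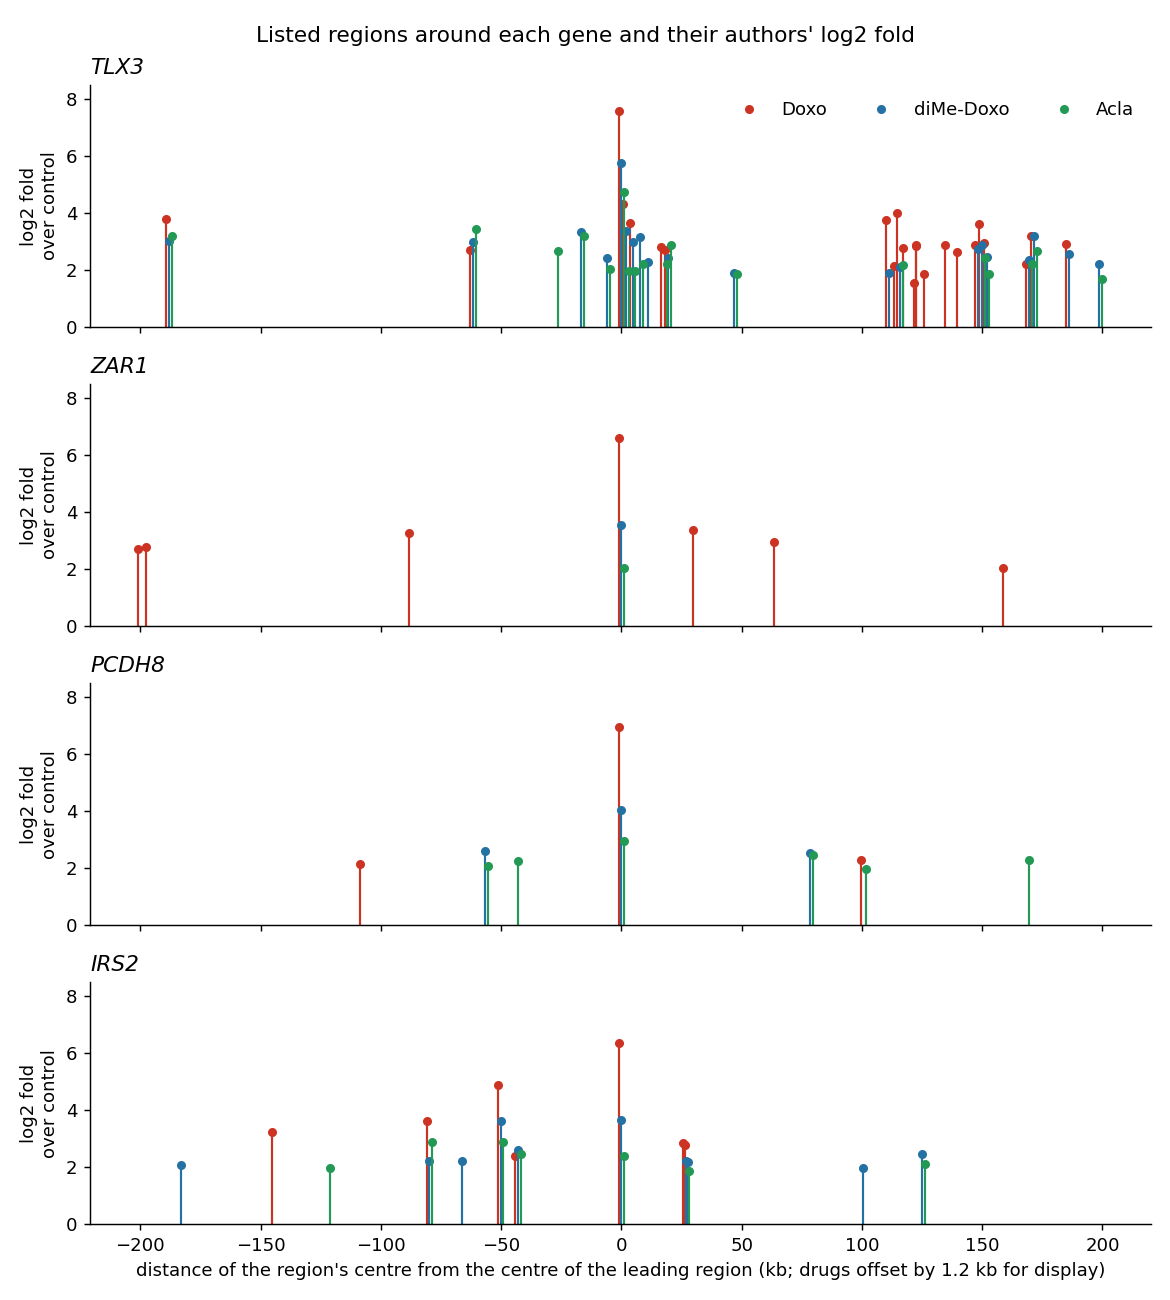
Authors' log2 fold over control (y axis) of each listed region against the distance of its centre from the centre of the leading region (x axis, kb), for Doxo, diMe-Doxo and Acla at the 4 genes. That the leading region is the highest with Doxo at each gene follows from its definition and the choice of genes. ZAR1 has no neighbours listed for diMe-Doxo or Acla within 200 kb.

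The regions most like each leading region were found by the distance between the log2 signals of the 6 treated libraries over the mean control, among the 28735 regions in all 3 lists. IRS2 was the ninth nearest region to ZAR1. PCDH8 ranked 136 from ZAR1 and 135 from IRS2, and the nearest of the 3 to TLX3 was PCDH8, at rank 288. The region nearest to TLX3 was on chromosome X at 99662105-99665585, with folds (Doxo, then diMe-Doxo, then Acla) of 7.31, 5.50 and 5.04 in the authors' deposited table. A region on chromosome 20 at 22562583-22564589 was nearest to ZAR1 and second nearest to IRS2, with 6.62, 3.63 and 2.37 in the authors' deposited table. The nearest to PCDH8 was on chromosome 1 at 90308478-90310067 (6.80, 3.94 and 2.91 in the authors' deposited table) and the nearest to IRS2 on chromosome 3 at 169487039-169487642 (6.15, 3.54 and 2.30). Likeness here describes 6 libraries that share 2 controls.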

How the data were processed

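ATAC-seq libraries of K562 cells were compared in 3 lists of gained regions, 1 per drug. The genome build was GRCh37 and the comparison tool DiffBind, per the submitters' processing notes. No source used here names the aligner, peak caller, normalization or any version. The lists lack a header, so the meaning of each column was inferred from its values. The authors deposited mean signals and folds on a log2 scale, p-values with false discovery rates (highest p 0.05, lowest log2 fold 1.5), the number of libraries with a called peak, and a signal per library that is a read count times 1 factor. Folds matched treated minus control means to 0.01.

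Reads were recovered by dividing each signal by its step, and 100% of values were whole within 0.1 reads. Lists were put on the Doxo list's scale by the geometric mean of the shared control factors (what 1 read of control library 1 and 2 was worth: 1.44 and 1.39 for Doxo, 2.41 and 2.03 for diMe-Doxo, 2.85 and 2.44 for Acla). Doxo and diMe-Doxo were compared with limma 3.58.1 (trend) on log2 signal without a pseudocount over all 33140 regions in both lists, with Benjamini-Hochberg adjustment. edgeR 4.0.16 and DESeq2 1.42.0 on recovered reads, TMM factors, a pseudocount, a filter and leaving out each library were alternatives. The limma script was tested on simulated data. Counting intervals are exact (Clopper-Pearson) on summed reads. The genes and lists were chosen with earlier results of these data known. Named regions are all members, the leading region of each gene, their flanks and the 2 most alike regions. CCAAT was added after the sequences were seen. Gene spans are GRCh37, and strands, names and promoters are from RefSeq GRCh38.p14, whose promoter table matched 3 of the 4 genes. Related and neighbouring genes were not placed on GRCh37 and were not analysed here. R 4.3.3 and Python 3.11.15 were used.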

Additional observations from a re-analysis of the deposited data

How the results depend on the processing

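Of the 23 log2 folds over control at the members, 19 moved by over 1.5 times when 1 control library was left out, and the values at the leading regions stand in the text. Doxo had 6 members, diMe-Doxo 9 and Acla 8. With a flank of 50 kb it was 14, 18 and 18, with no flank 4 for diMe-Doxo and 4 for Acla, and with the stricter limits (FDR 0.01, log2 fold 2) it was 2 for Acla, the alternatives' own construction. These 2 were the leading regions of TLX3 and PCDH8, and those of ZAR1 and IRS2 dropped out. Of regions in both lists, 9307 were called higher with Doxo, and 7446 to 9361 when 1 library was left out. Regions called lower numbered 889, but 3051 with TMM factors, 3508 with edgeR and TMM (added after seeing the data), 233 with DESeq2 and 102 to 1679 when 1 library was left out. The cause was not tested. No paired analysis was possible because the labels give the libraries no replicate numbers. Control reads, from 1 to 11 per library at the leading regions, limit the folds over control.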
